A study of Mus musculus with 18 samples.

Results

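Hedgehog signalling was followed in the neonatal mouse ovary through 8 genes, namely the ligands Dhh and Ihh, the receptor Ptch1, the decoy receptor Hhip, the transducer Smo and the transcription factors Gli1, Gli2 and Gli3. They were taken by symbol, and all 8 were found among the 30172 genes in the files. The RNA came from whole ovaries of wild-type C57BL/6J F1 females at postnatal day 3, 7 or 21 (Pd3, Pd7, Pd21). In the F1-HHcy group the dams ate a diet with 3% methionine, which raises blood homocysteine (hyperhomocysteinemia, HHcy), and in the F1-Control group the dams ate normal chow. GEO's labels date the diet from 4 weeks before mating until the end of lactation, and the methods text of the study gives an earlier start. The pups were not treated themselves, all sires ate normal chow, and weaning was at Pd21. Each of the 6 groups had 3 libraries, 18 in all. The labels put the 12 libraries of Pd3 and Pd7 in batch 1 and the 6 libraries of Pd21 in batch 2, so age and batch cannot be told apart between Pd21 and the earlier days. The labels do not say whether a library held 1 pup or several, nor whether pups shared a dam, so the p-values below measure the spread between these libraries only.

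In the growing follicle, granulosa cells release Indian hedgehog (Ihh) and desert hedgehog (Dhh), and the receiving cells are the stromal precursors around the follicle that form the theca layer. Without ligand, the receptor Ptch1 keeps Smo inactive at the primary cilium and Gli3 is processed to a repressor. With ligand, Smo is released, Gli2 acts as an activator, and the cell transcribes Gli1, Ptch1 and Hhip, so these 3 RNAs are commonly read as the response. Ptch1 and Hhip both bind ligand and damp the pathway. Since the RNA is from whole ovaries, fewer cells of a type and less RNA per cell cannot be told apart in any value below.

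The stretches before the start sites of both ligands and of Hhip are shown first, since these 3 genes had the lowest levels at Pd3. Each is 250 bases from RefSeq on GRCm38.p6, written 5′ to 3′ on the gene's own strand, which is the minus strand for all 3. Capitals mark CCACCC or its reverse complement GGGTGG, the core of the Gli binding sequence.
Ihh, chr1:74951673-74951922: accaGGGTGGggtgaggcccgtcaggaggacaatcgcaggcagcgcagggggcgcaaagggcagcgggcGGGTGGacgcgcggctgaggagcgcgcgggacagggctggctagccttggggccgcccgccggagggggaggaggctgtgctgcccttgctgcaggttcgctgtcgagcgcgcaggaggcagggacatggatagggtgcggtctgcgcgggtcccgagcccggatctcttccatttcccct
Dhh, chr15:98898541-98898790: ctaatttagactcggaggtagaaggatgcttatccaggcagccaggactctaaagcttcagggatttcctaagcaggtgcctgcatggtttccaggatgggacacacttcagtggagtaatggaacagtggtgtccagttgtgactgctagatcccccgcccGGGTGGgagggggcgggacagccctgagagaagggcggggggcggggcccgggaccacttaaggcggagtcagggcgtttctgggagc
Hhip, chr8:80058009-80058258: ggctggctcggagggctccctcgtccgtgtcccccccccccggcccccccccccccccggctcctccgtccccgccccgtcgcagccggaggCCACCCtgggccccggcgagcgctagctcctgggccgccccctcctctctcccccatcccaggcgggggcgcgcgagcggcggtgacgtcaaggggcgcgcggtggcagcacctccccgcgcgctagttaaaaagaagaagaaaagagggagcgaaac
The full Gli consensus GACCACCCA, searched on both strands, was in none of the 7 members with a promoter in the table, and in 74 of all 32851 windows of 250 bases (0.225%). The 6-base core, chosen after the consensus had given no match, was in 6 of the 7 members, beside 28.1% of all windows. It lay at base -246 and base -181 before the Ihh start, at base -88 before Dhh and at base -158 before Hhip, counted to its first letter on the printed strand. The Ptch1 window held no core. These are matches of letters, and the core is contained in the consensus.

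The values were FPKM, fragments scaled by the length of the gene and the depth of the library. Levels of different genes can be compared only as far as these lengths hold. The lengths implied by the values ran from 3049 bases for Ihh to 13870 for Gli2 among the members. The libraries held 33630304 to 39398922 fragments, and 1 fragment in the shallowest was worth 0.00975 FPKM for Ihh and 0.00326 FPKM for Hhip. Markers of the oocyte (summed FPKM of 12 genes 963 to 2787) and of granulosa cells (13 genes, 462 to 2029) were present in every library, as a whole ovary would have. At Pd3 the F1-HHcy replicate 3 stood apart from its group: its theca marker sum was 248 FPKM and its smooth muscle marker sum 74.1 FPKM, against 944 and 545 and against 405 and 307 in replicates 1 and 2. Its theca sum lay inside the F1-Control range at Pd3 (216 to 272 FPKM) and its smooth muscle sum below it (106 to 153). Single theca genes differed. Hsd3b1, the most abundant, was at 61.6 FPKM in this replicate, below the controls (88.8 to 143.4). Tcf21 (99.15 against 47.38 to 70.15) and Pdgfra (31.96 against 8.34 to 11.64) lay above every control. The Pd3 tests of the hedgehog genes and of the other pathway genes called are given with and without this replicate.

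In the F1-Control ovaries at Pd3 the pathway had its receiving genes but little ligand. Smo was the most abundant member at 32.3 ± 4.20 FPKM (SD, n = 3), ahead of Ptch1 at 9.27 ± 0.821, Gli3 at 4.88 ± 0.526 and Gli1 at 4.88 ± 2.45. The libraries of Gli1 (2.18 to 6.96 FPKM) and Gli3 (4.36 to 5.41) overlapped, so that neither ranked above the other. Dhh followed Gli2 (1.49 ± 0.503) at 0.509 ± 0.210 FPKM, while Hhip and Ihh were close to 0 at 0.0176 and 0.0155 FPKM. In fragments, Ihh had 0, 1 and 4 and Hhip had 8, 3 and 6 in replicates 1 to 3.

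**Figure D1:**
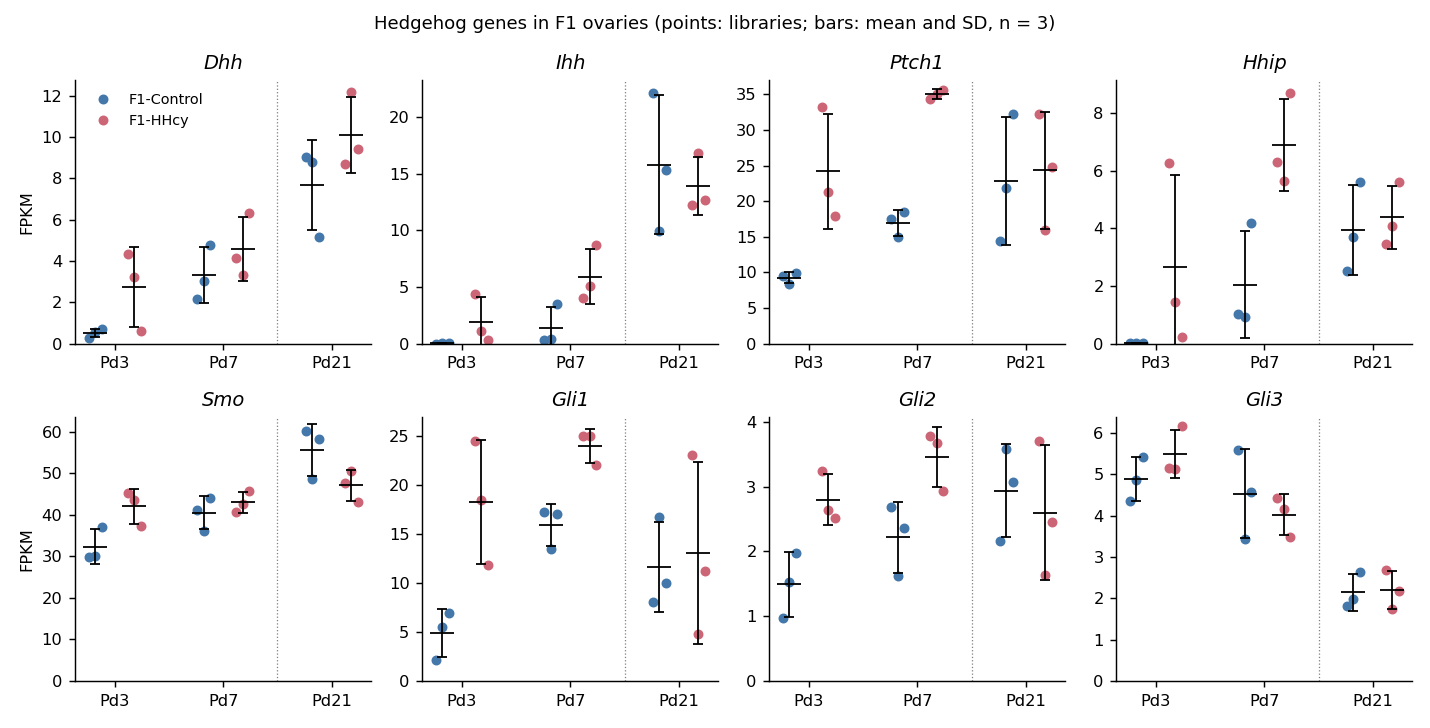
FPKM of the 8 hedgehog genes (y axes, linear from 0, a separate scale for each gene) by postnatal day (x axis) in F1-Control (blue) and F1-HHcy (red). Points are libraries, black bars the mean and SD of 3, cut at 0, and the dotted line separates the batches. Ptch1 lies at 34.3 to 35.7 FPKM in F1-HHcy at Pd7, above the 15.0 to 18.5 of F1-Control, and all 8 genes overlap between the diets at Pd21.

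Both ligands were low in the F1-Control ovaries at Pd3. Ihh, the ligand tied to growing follicles, was at 0, 0.00915 and 0.0374 FPKM in the F1-Control libraries at Pd3 and at 4.42, 1.09 and 0.304 in F1-HHcy. Every F1-HHcy library lay above every control, and the lowest of them was 8.15 times the highest control. The F1-HHcy libraries also differed widely among themselves, with 488, 119 and 32 fragments. Dhh, the ligand that the ovary shares with Sertoli and Schwann cells, was at 0.279, 0.559 and 0.690 FPKM in F1-Control and at 4.36, 3.24 and 0.593 in F1-HHcy. Replicates 1 and 2 were high and replicate 3 fell inside the control range, so for Dhh the groups overlapped.

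Neither ligand nor Hhip reached 1 FPKM in 3 of the 6 libraries at Pd3, so only 5 of the 8 members entered the test of that day. Hhip, the secreted and membrane-bound decoy that is induced by the pathway, had 0.0249, 0.00916 and 0.0187 FPKM in F1-Control against 6.29, 1.46 and 0.226 in F1-HHcy. The lowest F1-HHcy library was 9.07 times the highest control, and replicate 1 held 2081 fragments where no control held more than 8. When these genes were tested without the filter, limma-voom on the fragments recovered from the FPKM values gave log2 fold changes of 6.38 ± 1.58 (SE) for Ihh, 6.19 ± 2.41 for Hhip and 2.11 ± 0.859 for Dhh. None passed, with limma-voom adjusted p of 0.089, 0.241 and 0.260, and on the log2(FPKM + 1) scale without a filter the limma adjusted p were 0.317, 0.349 and 0.332.

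Ptch1, the receptor and itself a target, was the 1 member called at Pd3. It was at 9.55, 8.34 and 9.90 FPKM in F1-Control and at 33.3, 21.3 and 17.9 in F1-HHcy, with no overlap. The log2 fold change of FPKM + 1 was 1.25 ± 0.213 (limma, adjusted p = 0.032). Over all genes 408 of 13277 were called on that day (3.07%), beside 1 of the 5 members tested, and the members' median log2 fold change was 0.62 against -0.03 over all genes tested. The call on Ptch1 was lost on leaving out any of the 3 controls or F1-HHcy replicate 2 (limma adjusted p up to 0.180), and without any filter on low values (0.115).

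The 3 Gli genes differed in size of change. Gli1, an activator that is itself induced by the pathway, was at 2.18, 5.49 and 6.96 FPKM in F1-Control and at 24.6, 18.5 and 11.9 in F1-HHcy at Pd3. The groups did not overlap, and the log2 difference of 1.76 ± 0.373 stopped short of the threshold (limma, adjusted p = 0.053). It crossed with all 18 libraries in the fit (0.019) and with median-ratio scaling (0.049). Gli2, the activator, was at 0.973 to 1.98 FPKM in F1-Control and 2.52 to 3.25 in F1-HHcy (log2 0.62 ± 0.185, adjusted p = 0.109). Gli3, the main repressor, was at 4.36 to 5.41 against 5.14 to 6.16 FPKM, which overlapped (log2 0.14 ± 0.131, adjusted p = 0.565). Smo, whose RNA is not known as a target, lay at 29.7 to 37.1 FPKM in F1-Control and just above at 37.2 to 45.2 in F1-HHcy (log2 0.37 ± 0.129, adjusted p = 0.151).

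Between the diets at Pd3, 6 of the 8 members did not overlap, all higher in F1-HHcy, where 19.9% of 27825 genes did not overlap in either direction. For each of these 6 members the exact 2-sided permutation test gave p = 0.1, the smallest that 3 against 3 libraries allow. Leaving out the F1-HHcy replicate 3 raised the calls from 1 to 4, while the count over all genes went from 408 to 2824. These were Ptch1 (log2 1.43, adjusted p = 0.00241), Gli1 (2.03, 0.00715), Gli2 (0.68, 0.0446) and Smo (0.45, 0.0345), by limma on the remaining 5 libraries, while Gli3 was not called (0.07, 0.746). Without that replicate Ihh was at 4.42 and 1.09 FPKM, Hhip at 6.29 and 1.46 and Dhh at 4.36 and 3.24 in F1-HHcy, all above every control, but in this fit too the filter left all 3 untested.

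At Pd7 the response genes Ptch1, Hhip and Gli1 and the ligand Ihh were higher in the F1-HHcy ovaries. Ptch1 was at 17.4, 15.0 and 18.5 FPKM in F1-Control and at 34.3, 35.1 and 35.7 in F1-HHcy, a log2 fold change of 1.01 ± 0.134 (limma, adjusted p = 0.00336). This call held in all 8 other settings (limma adjusted p up to 0.0371) and in all 6 fits that left out a library (up to 0.0218). The F1-HHcy libraries spanned less than 2 FPKM, and the lowest was 1.86 times the highest control.

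Hhip at Pd7 was at 1.04, 0.917 and 4.19 FPKM in F1-Control and at 6.30, 5.67 and 8.70 in F1-HHcy. The groups did not overlap, and the log2 fold change was 1.51 ± 0.343 (limma, adjusted p = 0.0225). The control replicate 3 stood well above the other 2 controls, and without it the difference was 1.98 (adjusted p = 0.00046). The call was lost without F1-Control replicate 1 or 2 or F1-HHcy replicate 1 or 3, with adjusted p up to 0.0924.

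Ihh behaved in the same way across these libraries. It was at 0.312, 0.371 and 3.47 FPKM in F1-Control and at 4.04, 5.04 and 8.67 in F1-HHcy, again with replicate 3 the highest control and just under the lowest F1-HHcy library. The log2 fold change was 1.73 ± 0.433 (limma, adjusted p = 0.033), and 2.31 without the control replicate 3 (0.00071). It lost its call without F1-Control replicate 1 or 2 or F1-HHcy replicate 2 or 3 (up to 0.129). Dhh was at 2.14, 3.04 and 4.79 against 4.16, 3.32 and 6.32 FPKM, which overlapped, with a log2 difference of 0.38 ± 0.256 (adjusted p = 0.327, 95% interval -0.19 to 0.96).

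Gli1 at Pd7 was at 17.2, 13.5 and 17.1 FPKM in F1-Control and 25.1, 25.0 and 22.1 in F1-HHcy. The log2 fold change of 0.57 ± 0.146 passed (limma, adjusted p = 0.0356), but 5 of the 6 fits that left out a library, all except that without F1-Control replicate 3, ended the call (up to 0.154). Gli2 did not overlap between the diets either, at 1.61 to 2.69 against 2.93 to 3.78 FPKM, without passing (log2 0.48 ± 0.177, adjusted p = 0.1). Gli3 (3.43 to 5.59 against 3.49 to 4.44 FPKM) and Smo (36.2 to 44.1 against 40.7 to 45.7) overlapped, with log2 differences of -0.12 ± 0.180 and 0.09 ± 0.137 and intervals of -0.53 to 0.28 and -0.22 to 0.39.

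In all, 4 of the 8 members tested at Pd7 were called, all higher in F1-HHcy, beside 1577 of 13299 genes (11.9%). Here 5 members did not overlap, all higher in F1-HHcy, where 28.3% of 27626 genes did not overlap in either direction. The members' median log2 fold change was 0.53, against -0.001 over all genes tested. Ihh and Hhip reached 1 FPKM in 3 libraries only through F1-HHcy, where they were high, so the count and the median draw on 2 members that the filter admitted through that group. Without a filter on low values limma kept the call on Ptch1 alone (adjusted p = 0.126 for Hhip, 0.152 for Ihh and 0.0867 for Gli1), whereas limma-voom without a filter kept Ptch1, Ihh and Hhip. The call on Gli1 was also lost with limma-voom without a filter (0.0617), with all 18 libraries in 1 model (0.361), and under a rule that asks for a log2 change over 0.58.

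**Figure D2:**
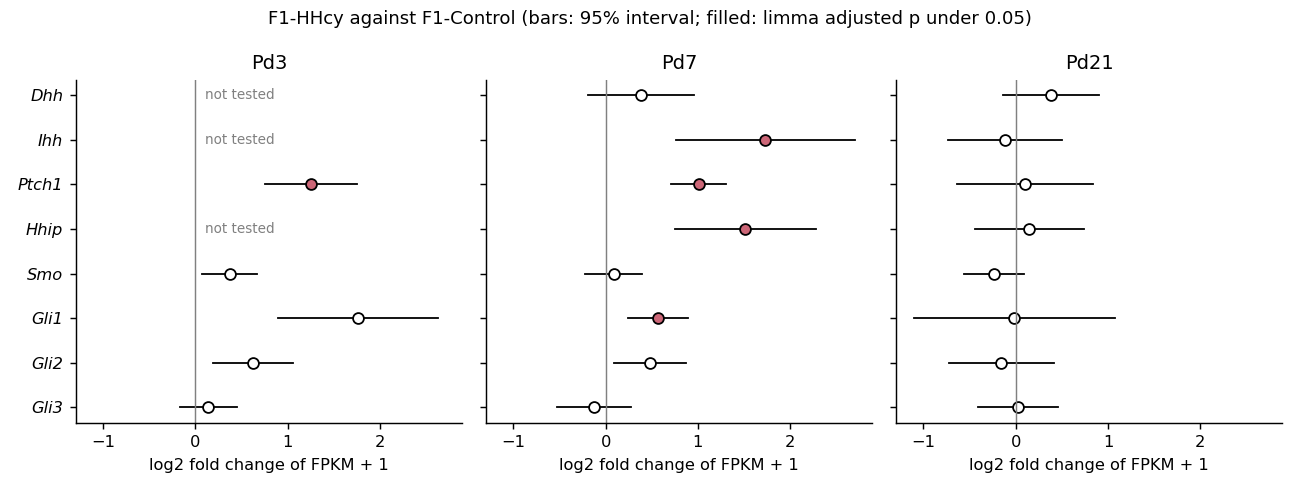
Log2 fold change of FPKM + 1, F1-HHcy against F1-Control (x axis), for each hedgehog gene (y axis) at Pd3, Pd7 and Pd21. Bars are 95% intervals and filled points have a limma adjusted p under 0.05, with Dhh, Ihh and Hhip not tested at Pd3. Ptch1 is called at Pd3 (1.25), Ptch1, Ihh, Hhip and Gli1 at Pd7 (1.01, 1.73, 1.51 and 0.57), and every interval at Pd21 spans 0.

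By Pd21 the diets overlapped in every member. Ihh was at 22.2, 9.89 and 15.3 FPKM in F1-Control and at 12.2, 16.9 and 12.7 in F1-HHcy, and Dhh at 9.06, 8.82 and 5.14 against 8.71, 12.2 and 9.42. Ptch1 spanned 14.4 to 32.3 FPKM in F1-Control and 15.9 to 32.3 in F1-HHcy, and Hhip 2.51 to 5.63 and 3.46 to 5.6. The spread within a group was wider than at Pd7 for Ptch1, with an SD of 9.0 and 8.18 FPKM against 1.80 and 0.666.

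None of the 8 members was called at Pd21 by limma, with every adjusted p at 1, none had an unadjusted p under 0.05, and limma-voom called none. Over all genes 298 of 13350 were called (2.23%), and no member was among the 10.6% of 27810 genes that did not overlap. Log2 differences lay between -0.23 ± 0.143 for Smo and 0.38 ± 0.227 for Dhh. The intervals were wide for the response genes, -1.11 to 1.07 for Gli1 and -0.63 to 0.84 for Ptch1, so the Pd7 value lay inside the interval for Gli1 (0.57) and above it for Ptch1 (1.01). The median over the members was 0.005, against -0.01 over all genes tested. Markers of oviduct differed at this age: 7 multiciliated genes summed to 59.9 to 215 FPKM in F1-Control and 4.98 to 8.99 in F1-HHcy, and 5 secretory genes to 73.5 to 505 and 8.81 to 22.3. Of these, 6 multiciliated and 2 secretory genes were called lower in F1-HHcy, and their part in the Pd21 values was not tested.

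The change of the diet effect with age was tested in a model of all 18 libraries, and no member passed. Between Pd7 and Pd3 none of the 8 was called by limma (60 of 14607 genes, 0.411%), and none had an unadjusted p under 0.05 (2017 genes). Between Pd21 and Pd7 none was called (568 genes, 3.89%), with Ihh nearest at -1.85 ± 0.671 (adjusted p = 0.145). Of the 8, 2 had an unadjusted p under 0.05, beside 2832 of the 14607 genes. Between Pd21 and Pd3 none was called (671 genes, 4.59%), and 4 had an unadjusted p under 0.05, beside 2346 of the 14607 genes. These 4 were Smo (-0.60 ± 0.179, adjusted p = 0.0687), Ptch1 (-1.15 ± 0.373, 0.105), Gli1 (-1.78 ± 0.590, 0.114) and Gli2 (-0.78 ± 0.304, 0.193). Without the F1-HHcy Pd3 replicate 3, the Pd21 against Pd3 test called Dhh, Gli1, Ptch1 and Smo (adjusted p 0.0270 to 0.0479). The count over all genes in that fit was 1258, against 671 in the full model. Leaving out the F1-HHcy Pd21 replicate 1 gave 2 calls (654 over all genes). Leaving out F1-Control Pd3 replicate 3 or Pd21 replicate 1 or 2 gave 1 each (586, 264 and 470 over all genes).

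Both early ages were in 1 batch, so the course from Pd3 to Pd7 could be tested within each diet. In F1-Control, 3 of the 6 members tested rose: Dhh by 1.48 ± 0.229 (log2; limma adjusted p = 0.00488), Gli1 by 1.62 ± 0.301 (0.010) and Ptch1 by 0.81 ± 0.135 (0.00674). Over all genes 14.5% of 13336 were called. With the replicate number as a block, which pairs these libraries, the same 3 members were called, beside 2573 of the 13336 genes. Dhh reached 1 FPKM in 3 libraries only through Pd7, where it was high. The count of 3 therefore draws on a member that the filter admitted through that day. The calls on Gli1 and Ptch1 held in all 6 fits that left out a library and that on Dhh in the 3 in which it passed the filter, but Gli1 was lost without a filter (0.0653) and Ptch1 with all 18 libraries in 1 model (0.0578). Ihh and Hhip, which failed the filter here, went from at most 4 and 8 fragments to 34, 40 and 387 and to 340, 296 and 1400. With limma-voom on fragments and no filter both were called (log2 5.76 ± 1.43, adjusted p = 0.0405, and 6.48 ± 1.28, 0.0168). On the log2(FPKM + 1) scale without a filter Ihh was not (limma adjusted p = 0.303).

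In F1-HHcy limma called none of the 8 members between Pd3 and Pd7, and also none of 13257 genes (0%), while 4 members and 3119 genes had an unadjusted p under 0.05. Limma-voom likewise called none. The test of the diet effect between Pd7 and Pd3, which compares these courses directly, called no member. The courses were therefore not shown to differ between the diets. The log2 difference was 1.44 ± 0.505 for Ihh (adjusted p = 0.159) and 1.48 ± 0.577 for Hhip (0.185). Leaving out the F1-HHcy Pd3 replicate 1, the highest Pd3 library for these 3 genes, the test called Hhip (2.17), Ihh (2.01) and Ptch1 (0.81). Over all genes that fit called 1174 of 13107. Set side by side with no test, Gli1 was at 11.9 to 24.6 FPKM in F1-HHcy at Pd3 and at 13.5 to 17.2 in F1-Control at Pd7, and Ptch1 at 17.9 to 33.3 and 15.0 to 18.5.

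The share of Ihh in the ligand FPKM differed between the days, and at Pd21 that difference is also one of batch. Ihh made up 0, 1.61 and 5.14% of the summed Ihh and Dhh FPKM in F1-Control at Pd3, and 50.3, 25.1 and 33.9% in F1-HHcy. At Pd7 its share was 12.7, 10.9 and 42.0% against 49.3, 60.3 and 57.9%, with no overlap on either day. At Pd21 Ihh had the larger FPKM in all 6 libraries, at 52.9 to 74.8% and 57.3 to 58.3%. That order rests on the gene lengths used, 3049 bases for Ihh and 4993 for Dhh. In fragments, F1-HHcy replicates 1 to 3 had less Ihh (1341, 1980 and 1520) than Dhh (1569, 2347 and 1854). F1-Control replicate 2 did too (1146 and 1673), but not replicates 1 (2630 and 1760) and 3 (1822 and 1004). Dhh may also share fragments with Rhebl1, as given below. Shh, the third family member, stayed under 0.1 FPKM in all 18 libraries.

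**Figure D3:**
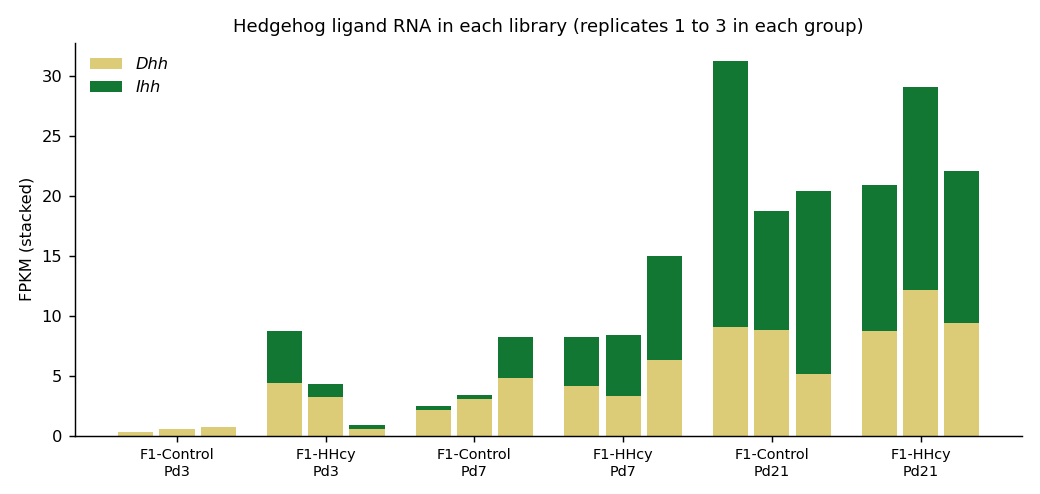
Stacked FPKM (y axis, from 0) of Dhh (yellow) and Ihh (green) in each of the 18 libraries (x axis, replicates 1 to 3 of each group). The sum is 0.279 to 0.727 FPKM in F1-Control at Pd3 and 18.7 to 31.2 at Pd21, and replicates of F1-HHcy at Pd3 span 0.897 to 8.77.

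RNA of the ligands and RNA of Gli1 and Ptch1 did not rank the libraries alike over the whole age range. At Pd3 and Pd7 Gli1 ran from 2.18 FPKM in the library with the least ligand (0.279) to 22.1 in that with the most (15.0). That last library, F1-HHcy replicate 3 at Pd7, had the least Gli1 of its group, below 25.1 and 25.0 in replicates 1 and 2. At Pd21 the F1-Control replicate 1 and the F1-HHcy replicate 2 had the most ligand of all (31.2 and 29.0 FPKM). They also had the least Gli1 of their day (8.03 and 4.81). The same 2 libraries had the lowest Ptch1 of that day (14.4 and 15.9 FPKM). Within their groups they were also lowest in the theca list genes Nr2f2 (19.1 and 15.6 FPKM) and Tcf21 (102.6 and 74.6). Pdgfra of that list was lowest in the F1-HHcy library (16.75), but not in the F1-Control one (20.18, against 18.21 in replicate 2). The part of the receiving cells in these values was not tested. Libraries with close sums of ligand RNA did not all have close Ptch1 RNA. At Pd7 the F1-Control replicate 3 had a ligand sum of 8.26 FPKM, between the 8.19 and 8.36 of F1-HHcy replicates 1 and 2, while its Ptch1 was 18.5 FPKM against 34.3 and 35.1. These libraries were picked out after their values were seen, and no test was made.

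**Figure D4:**
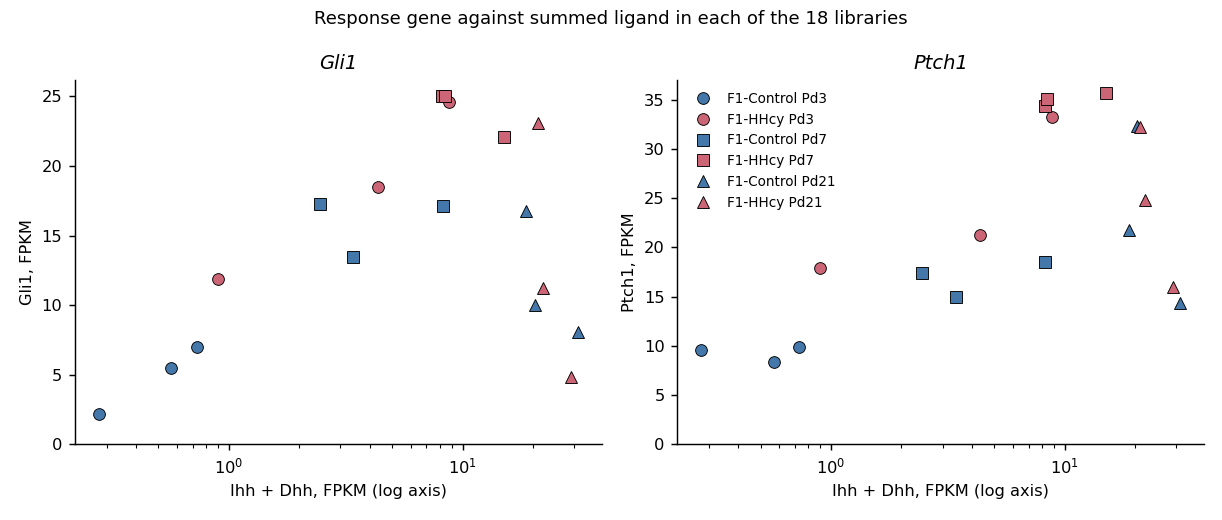
Gli1 and Ptch1 (y axes, FPKM from 0) against the sum of Ihh and Dhh (x axis, FPKM, logarithmic) in each library, with circles for Pd3, squares for Pd7 and triangles for Pd21, F1-Control in blue and F1-HHcy in red. Gli1 reaches 22.1 to 25.1 FPKM in F1-HHcy at Pd7, and the 2 libraries with the most ligand, both at Pd21, have 8.03 and 4.81.

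Ratios between members sorted the libraries further. Gli1 was 0.499 to 1.29 times Gli3 in F1-Control at Pd3 and 1.92 to 4.76 times in F1-HHcy, and at Pd7 3.08 to 3.92 against 5.65 to 6.32 times. Ptch1 was 0.267 to 0.322 times Smo in F1-Control at Pd3 and 0.482 to 0.736 in F1-HHcy, and 0.414 to 0.423 against 0.781 to 0.843 at Pd7. At Pd21 both ratios overlapped between the diets. Gli3 itself was lower at Pd21 (1.75 to 2.68 FPKM in all 6 libraries) than on either earlier day (3.43 to 6.16), a difference that is also one of batch.

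Most theca markers were called higher in F1-HHcy at Pd7 and most granulosa markers were not called, beside 3.07% of all genes called at Pd3 and 11.9% at Pd7. Theca markers summed to 216 to 272 FPKM in F1-Control and 248 to 944 in F1-HHcy at Pd3, and to 421 to 702 and 1366 to 1535 at Pd7. At Pd3, 2 of the 6 tested of 10 theca genes were called higher, and at Pd7, 7 of 10, among them the androgen enzyme gene Cyp17a1 at 0.837, 0.599 and 9.03 FPKM against 169, 175 and 64.3. The most abundant, Hsd3b1, was also called at Pd7 (log2 1.71, limma adjusted p = 0.00558), whereas the second, Tcf21, was not called at either age. At Pd7 Cyp17a1, Cyp11a1, Lhcgr and Insl3 reached 1 FPKM in 3 libraries only through F1-HHcy, where they were high. The theca count of that day therefore draws on genes that the filter admitted through that group. For granulosa markers the sums were 462 to 534 against 488 to 741 FPKM at Pd3 and 492 to 774 against 724 to 1128 at Pd7, with 2 of 11 and 3 of 13 called higher and 0 and 1 lower. These granulosa sums overlapped between the diets on both days. Inha, the most abundant, was called higher on both days (log2 1.78 and 1.40), and Gatm, the second, was the 1 called lower at Pd7 (-1.0).

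Ratios to single marker genes differed with the gene and the day. The summed ligands were 0.0341 to 0.0350 times Inha in F1-Control at Pd7 and 0.0311 to 0.0335 times in F1-HHcy, so F1-HHcy lay just below. At Pd3 that ratio overlapped (0.00815 to 0.0210 against 0.0112 to 0.0415). Relative to Foxl2, another granulosa gene, the ligands were at 0.00472 to 0.0142 against 0.0160 to 0.133 at Pd3 and overlapped at Pd7 (0.0515 to 0.133 against 0.121 to 0.201). Gli1 relative to Nr2f2, a gene of theca and stroma, was higher in F1-HHcy at Pd3 (0.256 to 0.628 against 0.705 to 1.03) and overlapped at Pd7 (0.872 to 1.08 against 0.785 to 1.0). Ptch1 relative to Nr2f2 overlapped at Pd3 (0.652 to 1.12 against 0.986 to 1.4) and was higher in F1-HHcy at Pd7 (0.882 to 1.18 against 1.22 to 1.4). Relative to Pdgfra, a stromal receptor gene, Ptch1 was higher in F1-HHcy at Pd7 (0.389 to 0.460 against 0.571 to 0.951), while at Pd3 the groups overlapped with 2 of the 3 F1-HHcy libraries below the controls (0.717 to 1.15 against 0.5 to 0.722). These denominators were chosen with the values known, and Inha, Nr2f2 and Pdgfra were each themselves called higher in F1-HHcy on at least 1 of these days. Nr2f2 is also listed below among genes reported as hedgehog targets in other tissues, so ratios to it cannot tell cell content from pathway output.

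Other cell types moved with the diet as well, and their part in the hedgehog values was not tested. Red cell markers, led by Hbb-bs and Hba-a1, summed to 3941 to 11290 FPKM in F1-Control and 784 to 1108 in F1-HHcy at Pd3, with 7 of 7 genes called lower, and to 925 to 5791 and 287 to 502 at Pd7, with 5 of 5. Surface epithelium markers, led by Krt19 and Upk3b, were lower at Pd7 (481 to 812 against 215 to 413 FPKM, 5 of 7 called), and oocyte markers, led by Zp2 and Zp3, had 2 of 12 called higher at Pd3, and 7 lower and 1 higher at Pd7. Endothelial markers, led by Emcn and Cdh5, were at 43.8 to 62.3 against 79.2 to 111 FPKM at Pd3 with 0 of 7 called, and at 92.3 to 104 against 107 to 120 at Pd7, where Tie1 was called higher (log2 0.62, limma adjusted p = 0.0335). Smooth muscle markers, led by Acta2 and Tagln, had none called at Pd3 or Pd7. Macrophage markers, led by Lyz2 and C1qb, had none of 7 called on either of these days. Of the cells that make Dhh elsewhere, Sertoli cell markers summed to 27.2 to 122 FPKM over all 18 libraries, mostly from Aard. Mean FPKM over these libraries was 43.4 for Aard, 5.13 for Cldn11, 1.10 for Sox9 and 0.0220 for Dmrt1. None of the 3 tested was called at Pd3 by limma, and 1 of 2 was called higher at Pd7. Fat cell markers, led by Fabp4 and Adipoq, reached 280 FPKM in the F1-Control replicate 3 at Pd21 and at most 54.4 in the other libraries, with Plin1 called higher at Pd7 (log2 1.64, limma adjusted p = 0.00268).

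The wider pathway was read from 37 genes for ligand release, reception, cilium and Gli processing, of which 34 were tested on each day. At Pd3, 1 was called higher and at Pd7, 1 lower, and at Pd21 none by limma, with median log2 fold changes of 0.03, 0.14 and -0.08 against -0.03, -0.001 and -0.01 over all genes. Gpc3, a cell surface proteoglycan that competes with Ptch1 for ligand, was the 1 at Pd3. It was at 59.8, 78.4 and 67.9 FPKM in F1-Control and 118, 138 and 124 in F1-HHcy (log2 0.88 ± 0.128, limma adjusted p = 0.0225). At Pd7 its order was the opposite, with 122, 137 and 123 against 91.6, 96.5 and 83.1 FPKM, without passing (-0.49 ± 0.142, adjusted p = 0.0509). Gas1, a co-receptor that promotes ligand binding, was the 1 called lower at Pd7, at 53.6, 33.3 and 36.7 FPKM against 27.1, 25.8 and 19.4 (-0.73 ± 0.201, adjusted p = 0.0446). At Pd21 Gas1 was again below every control library (31.2 to 48.3 against 15.0 to 25.8 FPKM) without passing (-0.81 ± 0.237, adjusted p = 0.223).

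Genes reported as hedgehog targets in other tissues went in both directions. Of 13 listed, 10 were tested on each day. Osr2, a zinc finger factor of mesenchyme, was higher in F1-HHcy at Pd3 (2.33 to 3.23 against 5.95 to 12.7 FPKM, log2 1.47, limma adjusted p = 0.0313) and at Pd7 (5.18 to 9.66 against 16.2 to 21.0, log2 1.35, 0.00642). Nr2f2 rose on both days too (log2 0.89 and 0.74, adjusted p = 0.0475 and 0.0242), and Sfrp1, a secreted Wnt antagonist, at Pd3 (0.86, 0.0303). The cyclin genes Ccnd1 and Ccnd2, which drive entry into the cell cycle, were called lower at Pd7 (log2 -1.04 and -0.71, adjusted p = 0.0119 and 0.0186), and Ccnd1 also at Pd21 (-1.21, 0.033). Osr1, a relative of Osr2, had the third smallest p of these lists at Pd21 without passing (-1.03, adjusted p = 0.305). The call on Osr2 at Pd7 held in all 6 fits that left out a library, those on Ccnd1 and Ccnd2 at Pd7 in 5 and 3, and each of the other calls of these 2 lists in 1 or 2. Without the F1-HHcy Pd3 replicate 3 the Pd3 calls on Gpc3, Sfrp1, Osr2 and Nr2f2 all held (adjusted p = 0.00138 to 0.00990).

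The genes whose log2(FPKM + 1) ran closest to each member over the 18 libraries were found by Pearson's r, given here as a description, since these points share age, batch and diet. Dhh ran with Hsd17b1, Rimkla and Zfp296 (r = 0.98 to 0.99), of which Hsd17b1 encodes a granulosa cell estrogen enzyme, and Ihh with Chst8, Arhgap31 and Sema7a (each r = 0.98). Ptch1 ran with Adcy7 (r = 0.97), Col4a3 and Wipf1 (each 0.93), and Hhip with Mmd2, Lamc3 and 2210404E10Rik (0.95 to 0.97). Adcy7, an adenylate cyclase gene, was at 1.37 to 1.78 FPKM in F1-Control and 5.09 to 13.9 in F1-HHcy at Pd3, and 5.63 to 9.63 and 19.3 to 22.1 at Pd7.

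Smo ran with Btd, Slc39a3 and Miga2 (each r = 0.93), Gli1 with Egflam, D630003M21Rik and Emilin1 (0.91 to 0.92), Gli2 with Rasip1, Pdgfrb and Adgra2 (0.94 to 0.95) and Gli3 with Sox11, Birc2 and Fat4 (0.96 to 0.97). Among the members, Ihh and Dhh were closest (r = 0.92), followed by Gli1 and Gli2 (0.88), and Gli3 ran opposite to Ihh (-0.82). Over the 12 libraries of Pd3 and Pd7 the closest pair was Ihh and Hhip (r = 0.98), with Ihh and Dhh at 0.87 and Gli3 and Ihh at -0.43. Most of the neighbours named from 18 libraries gave way to others over these 12, where Gli1 ran closest to the endothelial gene Cdh5 (0.98). Only Hsd17b1 for Dhh, Adcy7 for Ptch1 and Adgra2 for Gli2 were among the nearest 3 on both occasions.

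On GRCm38 (GENCODE vM21) the exons of 4 members overlap those of another gene. These are Gli1 (chr10:127329882-127341974) with Arhgap9 and Gm47200, Dhh (chr15:98891152-98898540) with Rhebl1 and Gm49442, Hhip (chr8:79965851-80058006) with Gm27820, and Gli3 (chr13:15463235-15730026) with Gm6556. The libraries were stranded, but the strand setting of the counting is not given in the sources used here, and Rhebl1 lies on the same strand as Dhh, so fragments of such pairs may have been shared. Ihh (chr1:74945315-74951672), Gli2 (chr1:118834132-119053619), Smo (chr6:29735503-29761365) and Ptch1 (chr13:63508328-63573598) have no such overlap.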

How the data were processed

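The files held FPKM values per gene for each of the 18 libraries, 30172 genes in each. Per the labels, the authors extracted RNA from whole ovaries with TRIzol and made stranded poly-A libraries. The submitters' processing notes name FastQC 0.11.9, Trimmomatic 0.39, STAR 2.7.9a, featureCounts 2.0.1, Subread and DESeq2 1.36.0 and the builds GRCm38 and mm10. The authors' FPKM were deposited without counts.

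A length per gene and a depth per library turned the values of all 27294 genes above 0 in at least 3 libraries into whole fragments (within 0.02 of a fragment), with 99.9887% or more of each library's total recovered. Groups were taken from the labels.

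Diet effects were tested on each day in its 6 libraries with limma 3.58.1 (trend) in R 4.3.3 on log2(FPKM + 1), for genes at 1 or more in at least 3 libraries, with Benjamini-Hochberg adjustment over all genes tested and calls at 0.05. A fold change on this scale understates that of low genes. Differences between days used 1 model of the 18 libraries. Groups of 3 were also set apart by overlap, with the exact 2-sided permutation test. Intervals are 95%. In simulations of the Pd3, Pd7 and Pd21 diet comparisons on 13072, 13104 and 13167 genes, 179, 176 and 160 of 200 genes altered by 1.5 (log2) were recovered. The altered genes were drawn only from higher levels, with normal noise, so these rates do not describe low genes such as Ihh, Hhip and Dhh at Pd3.

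Named were the members, other pathway genes that were called or had the 3 smallest p on a day, the 2 most abundant markers of a list, and the 3 nearest genes of each member. Chosen after their values were seen were Cyp17a1, Cyp11a1, Lhcgr, Insl3, Shh, Sox9, Dmrt1, Tie1, Plin1 and the denominators Inha, Foxl2, Nr2f2 and Pdgfra. The members and lists were chosen with earlier results of these data known. The result of 1 marker list is not reported here. Same-numbered libraries of F1-Control at Pd3 and Pd7 deviated together (correlations 0.134, 0.262 and 0.292), which by the rule used here pairs them, although no label ties them to a dam or litter. No others did on all 3 numbers.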

Additional observations from a re-analysis of the deposited data

Results flagged for a closer look

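Gpc3 is listed here because its diet effect differed between days in the model of 18 libraries, by -1.37 between Pd7 and Pd3 (log2, limma adjusted p = 0.0144) and by -1.23 between Pd21 and Pd3 (0.00352). Its F1-HHcy libraries lay above all controls at Pd3 and below all controls at Pd7. The first of these calls held in 9 of the 12 fits that left out a library and the second in 12 of 12.

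Osr2 is listed for the same reason, by -1.46 between Pd21 and Pd7 (adjusted p = 0.0406) and by -1.58 between Pd21 and Pd3 (0.0234), after higher values in F1-HHcy on both early days and overlap at Pd21. These calls held in 2 and 6 of 12 such fits. Pd21 was a batch of its own, so age and batch cannot be told apart here.
Groups of 3 libraries were not tested for a sample that stands apart.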

How the results depend on the processing

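The count of members called moved with the processing at Pd3. From 1 it became 2 with median-ratio scaling and with all 18 libraries in the model, 3 at an unadjusted p under 0.05 with a log2 change over 0.58, 0 with limma without a filter (1 with limma-voom without one), and 0 to 4 on leaving out a library. At Pd7 the 4 became 1 with limma without a filter (3 with limma-voom without one) and 1 to 4 on leaving out a library. For the difference between days, leaving out a library gave 0 to 1 (Pd21 against Pd7) and 0 to 4 (Pd21 against Pd3). From Pd3 to Pd7, limma-voom on fragments without a filter, added after seeing the data, called 5 in F1-Control, and in F1-HHcy the unadjusted rule called 2 and leaving out a library 0 to 3. The cause of these moves was not tested. The count at Pd21 stayed at 0 in every setting.

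With the replicate number as a block, the count at Pd3 was 0 (Ptch1 adjusted p = 0.109), and the block changed no other member's call. Over all genes it moved the Pd3 count from 408 to 1. The numbers did not pair the diets (correlations -0.338 to 0.087). Over all settings, all-gene counts ran from 0 to 2824 at Pd3, 91 to 2183 at Pd7, 1 to 686 at Pd21, 10 to 264, 187 to 1170 and 212 to 1258 for the differences Pd7 against Pd3, Pd21 against Pd7 and Pd21 against Pd3, and 594 to 2573 and 0 to 1471 from Pd3 to Pd7 in F1-Control and F1-HHcy. No called member changed sign. At Pd3 the controls held at most 4 fragments of Ihh and 8 of Hhip, so their control levels rest on few counts.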
